A study of Mus musculus with 8 samples.

Results

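Dmp1, which encodes dentin matrix protein 1, was examined together with 9 other genes of bone matrix and of bone-forming cells in mouse undifferentiated pleomorphic sarcoma (UPS), a soft tissue tumour. The 10 genes were Dmp1, Spp1, Ibsp, Mepe, Phex, Runx2, Sp7, Bglap, Alpl and Sost, taken by symbol from the 26667 genes of the count table, where all 10 were found. Dmp1 was chosen by its own difference between KPH2 and KP tumours, where its p-value ranked 3rd of 14867 tested genes, so its values in that comparison are given as a description, without a test. The other 9 genes were taken for their roles in bone, and the question asked of them was whether they changed along with Dmp1. Both groups of mice carried the alleles of the KP model, Trp53 fl/fl among them, on a mixed 129/C57BL/6 background, and KPH2 mice carried Epas1 fl/fl in addition (labelled Epas1 -/-). Tumours were raised in male and female mice of at least 8 weeks of age by adenovirus expressing Cre recombinase, injected into hind limb muscle, and were taken 7 weeks later or at the largest size permitted. Cre deletes floxed alleles in the cells that the virus infects, and cells of the host that it does not reach keep Epas1, the gene of HIF-2α. RNA came from fixed, paraffin-embedded sections of 4 KP tumours (KP 5 to KP 8) and 4 KPH2 tumours (KPH2 1 to KPH2 4), with 1 library per tumour.

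Dmp1, Spp1 (osteopontin), Ibsp (bone sialoprotein) and Mepe belong, with Dspp, to the SIBLING family of secreted, acidic, highly phosphorylated proteins that bind integrins through an RGD motif and act in the mineralizing matrix of bone and dentin. Osteoblasts, which lay down bone, require the transcription factors Runx2 and then Sp7 (osterix), and make alkaline phosphatase (Alpl) and osteocalcin (Bglap). Osteocytes, the cells embedded in bone, make Dmp1, Mepe, the endopeptidase Phex and sclerostin (Sost), and loss of Dmp1 or Phex leads to renal phosphate wasting. Osteopontin is made by many other cells as well, macrophages and tumour cells among them.

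Total counts ran from 6463221 to 13155510 per tumour. Levels are given as CPM, the counts of a gene scaled to a common library size after TMM normalization over all 8 tumours. Epas1 stood at 59.1 to 86.7 CPM in the 4 KP tumours and at 32.6 to 53.3 CPM in the 4 KPH2 tumours. The groups did not overlap, a separation downward that 4.4% of genes showed over all 8 tumours. The difference did not pass the edgeR test described below (log2 fold change -0.81, adjusted p = 0.0742, and 0.117 over all 8 tumours). KPH2 1 was taken to be the tumour that the study left out as a technical outlier, since the authors' table for 7 tumours lacks it, and it is shown apart below. Fold changes come from edgeR's quasi-likelihood test of KPH2 2 to KPH2 4 against KP 5 to KP 8, with Benjamini-Hochberg adjustment over 14867 genes, and values with KPH2 1 added follow where they bear on a result. Mesenchymal markers (Vim, Fn1, Pdgfra, Pdgfrb, Thy1, S100a4, Col3a1 and Lum) summed to between 15336 and 35430 CPM per tumour, all 8 of them above the low-count filter.

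Dmp1 (Entrez Gene 13406, chromosome 5 of GRCm38, 104197575 to 104214102 in RefSeq, plus strand) was counted 7, 11, 7 and 9 times in KP 5, KP 6, KP 7 and KP 8, or 0.519, 1.55, 1.04 and 0.678 CPM. In KPH2 2, KPH2 3 and KPH2 4 it was counted 292, 231 and 138 times, or 26.2, 23.1 and 15.5 CPM, and in KPH2 1 it was counted 138 times, or 11.0 CPM. All 4 KPH2 tumours lay above all 4 KP tumours, and KPH2 1 was the lowest of the KPH2 tumours. Such a separation upward was seen for 8.73% of all tested genes with KPH2 2 to KPH2 4 and for 3.76% with KPH2 1 added, shares from which nothing is read for a gene chosen by this difference. KP tumours averaged 0.947 ± 0.459 CPM (SD, n = 4), against 21.6 ± 5.51 CPM (SD, n = 3) for KPH2 2 to KPH2 4, a ratio of 22.8. The fitted log2 fold change was 4.57 (standard error 0.39), the 29th highest among the tested genes. With KPH2 1 added it was 4.38 (standard error 0.43). KPH2 1 on its own stood 7.09-fold above the highest KP tumour, with an exact 95% Poisson interval of 9.25 to 13.0 CPM against 0.775 to 2.78 CPM in KP 6, both covering counting error only. Dmp1 passed the low-count filter through the KPH2 tumours, its KP counts being 7 to 11.

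No other gene annotated in GENCODE M21 overlapped Dmp1 on either strand. RefSeq gives Dmp1 an early start that GENCODE M21 lacks, and a later one near the start in GENCODE M21. Sequence before the start of Dmp1 is shown beside that of Spp1, abundant in every tumour, and of Mepe, nearly absent from every tumour. The 3 genes lie on the plus strand of chromosome 5 in the order Dmp1, Mepe and Spp1, with Ibsp between Dmp1 and Mepe. The windows, from RefSeq on GRCm38.p6, hold the 250 bases before the first start in RefSeq, at chr5:104197325-104197574, chr5:104434861-104435110 and chr5:104325079-104325328. Capitals mark the E-box CANNTG, its form CACGTG, which contains the core ACGTG of the HIF response element on each strand, and TGTGGT read on either strand, a core bound by Runx factors.
Dmp1: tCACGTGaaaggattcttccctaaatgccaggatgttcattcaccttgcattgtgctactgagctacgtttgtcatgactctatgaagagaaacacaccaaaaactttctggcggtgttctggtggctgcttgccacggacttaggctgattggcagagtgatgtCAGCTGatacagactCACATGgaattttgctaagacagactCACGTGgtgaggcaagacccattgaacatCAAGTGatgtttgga
Spp1: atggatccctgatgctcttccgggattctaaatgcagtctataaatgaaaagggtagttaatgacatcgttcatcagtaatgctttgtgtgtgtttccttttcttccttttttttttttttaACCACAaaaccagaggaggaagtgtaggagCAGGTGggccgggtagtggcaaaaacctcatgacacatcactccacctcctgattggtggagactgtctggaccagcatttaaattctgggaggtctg
Mepe: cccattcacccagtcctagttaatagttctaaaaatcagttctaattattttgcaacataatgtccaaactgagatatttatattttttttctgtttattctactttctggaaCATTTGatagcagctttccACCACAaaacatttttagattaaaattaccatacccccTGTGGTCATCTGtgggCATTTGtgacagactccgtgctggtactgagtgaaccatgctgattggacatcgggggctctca
The Dmp1 window holds 5 sites of CANNTG, 2 of them CACGTG, at bases -249 to -244 and -44 to -39 from the start, and no TGTGGT. The window before its later start holds 3 sites of CANNTG, none of them CACGTG, and 1 TGTGGT. The Spp1 window holds 1 CANNTG and 1 TGTGGT, and the Mepe window 3 and 2. RefSeq windows were matched for 9 of the 10 genes, 12 in all, and the first Dmp1 window was the single one of the 12 that held ACGTG on either strand. GCGTG, the other form of the HIF core, and the MEF2 motif were in 0 of the 12, whereas CANNTG was in 12 and TGTGGT in 5. Over 32851 windows of the same length for all genes, 16.6% hold ACGTG, 28.2% GCGTG, 66.2% CANNTG, 14% TGTGGT and 2.92% MEF2 on either strand. At least 2 CACGTG sites are in 0.429% and at least 5 CANNTG sites in 1.15% of them, counts that were looked up after the Dmp1 window had been read. These matches describe letters and carry no measurement of binding.

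None of the other SIBLING genes changed by a difference that passed the test. Spp1 (Entrez Gene 20750) was counted at 575, 4559, 4767 and 1446 CPM in KP 5, KP 6, KP 7 and KP 8, at 4961, 2935 and 3771 CPM in KPH2 2, KPH2 3 and KPH2 4, and at 2123 CPM in KPH2 1. KP 5 was the lowest of all tumours, and the groups overlapped widely. KP tumours averaged 2837 ± 2140 CPM (SD, n = 4), against 3889 ± 1018 CPM (SD, n = 3) for KPH2 2 to KPH2 4 (log2 fold change 0.45 ± 0.65 SE, edgeR adjusted p = 0.775). The log2 fold change was 0.12 without KP 5, 0.23 without KP 8, 0.24 without KPH2 2, 0.78 without KP 6, 0.82 without KP 7, 0.28 with KPH2 1 added and 2.13 with a muscle score as covariate. Ibsp was counted once in KP 7 and once in KPH2 4, Mepe once in KP 7 and once in KPH2 3, and neither was seen in the other 6 tumours. Dspp, the 5th member of the family and the gene of the main dentin phosphoprotein, reached at most 1 count in any tumour. At or below 3 counts in every library, these 3 genes allow no fold change. A count of 0 allows up to 3 counts, which is 0.222 to 0.444 CPM depending on the depth of the tumour, so that Ibsp or Mepe may be present below that range in tumours where they were not counted.

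Per kilobase of exon, which makes levels comparable between genes, Spp1 made up 99.5% to 99.98% of the summed SIBLING level in every tumour. Dmp1 made up 0.013% to 0.0537% of it in KP tumours and 0.245% to 0.467% in all 4 KPH2 tumours. Spp1 ranked between 3rd and 80th of 22937 genes in each tumour on this scale. Dmp1 ranked between 13668th and 15389th in KP and between 6561st and 9556th in KPH2 tumours.

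The 5 SIBLING genes lie side by side, and all annotated genes within 500 kb of Dmp1 were read next to it. Of 25 annotated neighbours, 15 were in the count table and 9 were tested, 2 with a positive and 7 with a negative log2 fold change, from -0.91 to 0.45 with a median of -0.27. edgeR called 0 of the 9 at an adjusted p of 0.05, against 1.96% of all tested genes, and 3 had an unadjusted p under 0.05, against 17.8%. DESeq2 called 1, Pkd2, against 7.25%. Dspp, 17.4 kb before Dmp1, and Ibsp and Mepe, 85.2 kb and 111 kb behind it, were at or below 1 count in every tumour. Nearest among the tested genes, Sparcl1, which encodes a SPARC-like matrix protein and lies 83.5 kb before Dmp1, stood at 193 CPM in KP and 163 CPM in KPH2 2 to KPH2 4 on average (log2 fold change -0.24, edgeR adjusted p = 0.548). Spp1 lies 221 kb behind Dmp1. Next to it Pkd2, the gene of polycystin-2, had the largest difference of the 9 at -0.91 (SE 0.23, adjusted p of 0.0879 in edgeR and 0.0106 in DESeq2), and it was -0.51 with KPH2 1 added. For Aff1, Klhl8, Hsd17b11, Nudt9, Thoc2l and Zfp33b the values were -0.32, -0.48, -0.42, 0.07, -0.11 and -0.27 on the log2 scale, and the lowest edgeR adjusted p among them was 0.275.

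**Figure D1:**
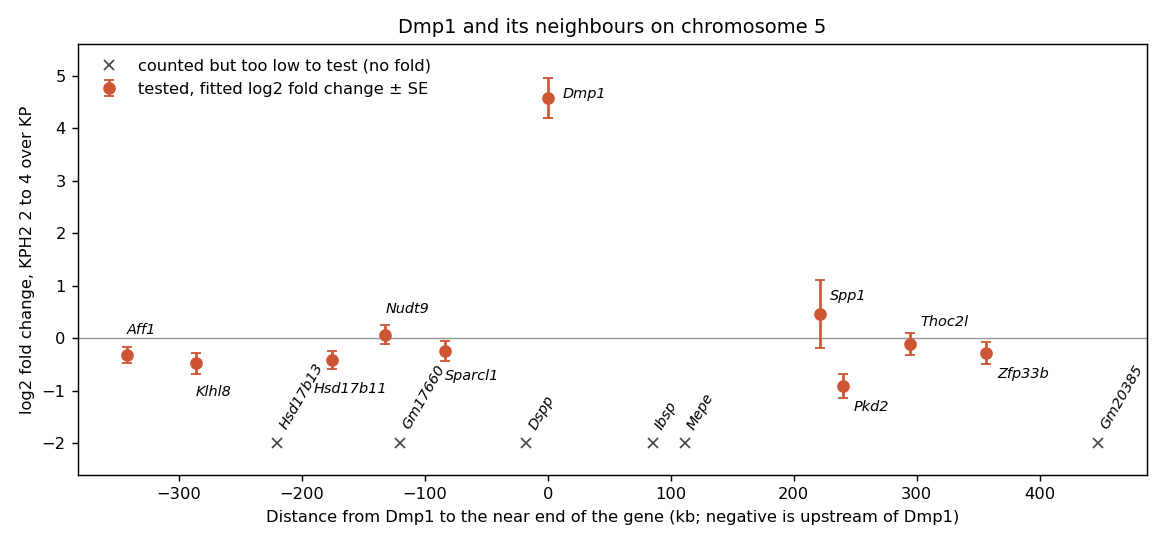
Fitted log2 fold change of KPH2 2 to KPH2 4 over KP 5 to KP 8 (points, with standard error bars) for Dmp1 and its tested neighbours against their distance from Dmp1 in kb, with crosses for genes counted too low to test, drawn at an arbitrary height. Dmp1 sits at 4.57, and the 9 tested neighbours lie between -0.91 and 0.45.

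Of the transcription factors, Runx2 was well expressed and Sp7 was not. Runx2 (Entrez Gene 12393, chromosome 17, 44495987 to 44814797) stood at 58.8, 58.0, 48.8 and 54.2 CPM in KP 5, KP 6, KP 7 and KP 8, at 94.4, 58.5 and 78.2 CPM in KPH2 2, KPH2 3 and KPH2 4, and at 53.3 CPM in KPH2 1. KPH2 2 and KPH2 4 lay above the KP tumours, while KPH2 3 and KPH2 1 lay inside their range. KP tumours averaged 55.0 ± 4.54 CPM (SD, n = 4), against 77.0 ± 17.9 CPM (SD, n = 3) for KPH2 2 to KPH2 4 (log2 fold change 0.48 ± 0.18 SE, edgeR adjusted p = 0.211), and with KPH2 1 added the log2 fold change was 0.37. In GENCODE M21, antisense genes overlap Runx2, and it is not stated here whether the counting used strand. Sp7, which acts after Runx2 in osteoblasts, was counted once in KP 8, KPH2 1, KPH2 3 and KPH2 4, 2 times in KPH2 2 and not in KP 5, KP 6 or KP 7.

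Of the 4 remaining genes, Alpl, Bglap and Sost were counted too low in both groups to be tested, and Phex was tested. Phex (Entrez Gene 18675, chromosome X, 157162075 to 157415286) had levels of 9.26, 3.53, 2.66 and 5.27 CPM in KP 5, KP 6, KP 7 and KP 8, of 17.2, 7.79 and 18.6 CPM in KPH2 2, KPH2 3 and KPH2 4, and of 8.78 CPM in KPH2 1. KPH2 2 and KPH2 4 lay above every KP tumour, and KPH2 3 and KPH2 1 lay below KP 5 and above the other 3. KP tumours averaged 5.18 ± 2.93 CPM (SD, n = 4), against 14.5 ± 5.86 CPM (SD, n = 3) for KPH2 2 to KPH2 4 (log2 fold change 1.46 ± 0.46 SE, edgeR adjusted p = 0.15). DESeq2 on the same counts gave 1.47 with an adjusted p of 0.0342, so that the call of Phex rests on the tool. With KPH2 1 added the edgeR value was 1.31 (adjusted p = 0.242).

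Alpl, the phosphatase that frees phosphate for mineral, was counted 7, 5, 10 and 5 times in KP 5, KP 6, KP 7 and KP 8 and 8, 1 and 1 times in KPH2 2, KPH2 3 and KPH2 4, too few to pass the filter. KPH2 1 held 31 counts of Alpl, or 2.47 CPM, above every other tumour. With no filter on low counts, the log2 fold change without KPH2 1 was -1.15 (standard error 0.81, adjusted p = 0.577 from edgeR). Bglap, the gene of osteocalcin, reached at most 4 counts, in KP 5, and summed to 5 counts over the KP and 6 over the 4 KPH2 tumours. Its near-identical copies share reads with it, and counting of unique alignments can miss such reads, so this level is uncertain. The copy Bglap2 was counted 0 times in every tumour. Sost, the osteocyte inhibitor of Wnt signalling, was counted 0 times in all 8 tumours.

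In all, 3 of the 9 other genes (Spp1, Phex and Runx2) passed the low-count filter, and 0 of them passed an adjusted p of 0.05 in edgeR, against 1.96% of all 14867 tested genes. At an unadjusted p under 0.05 there were 2 (Phex and Runx2), against 17.8% of all tested genes. DESeq2 called 1 of them (Phex), against 7.25% of the genes it tested. With KPH2 1 added edgeR called 0 of the 3, against 0.00675% of 14805 genes. The remaining 6 (Ibsp, Mepe, Sp7, Bglap, Alpl and Sost) were not tested, and 4 of these (Ibsp, Mepe, Sp7 and Sost) never exceeded 3 counts in a library.

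The order of levels per kilobase of exon, as medians, was Spp1 at 1822, Runx2 at 6.70, Phex at 0.703, Dmp1 at 0.310 and Alpl at 0.243 CPM per kb in KP tumours. In KPH2 2 to KPH2 4 it was Spp1 at 2288, Runx2 at 9.33, Dmp1 at 8.35 and Phex at 2.74 CPM per kb. Dmp1 thus stood among Phex and Alpl in KP tumours, where its range of 0.188 to 0.562 overlapped those of both, and beside Runx2 in KPH2 2 to KPH2 4, where its range of 5.62 to 9.49 overlapped the 6.99 to 11.3 of Runx2 and lay above that of Phex. In KPH2 1 Dmp1 stood at 3.98, between Phex at 1.40 and Runx2 at 6.36 CPM per kb.

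**Figure D2:**
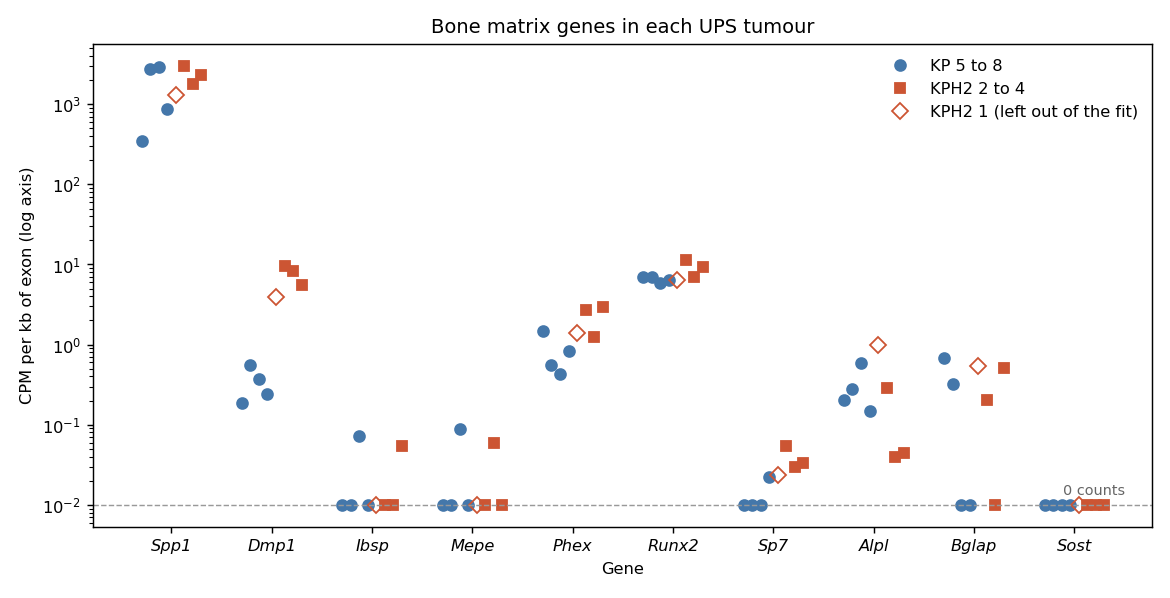
Level of each of the 10 genes in CPM per kb of exon (log axis), with 1 point per tumour, circles for KP 5 to KP 8, squares for KPH2 2 to KPH2 4 and an open diamond for KPH2 1; a tumour with 0 counts is drawn on the dashed line. Dmp1 is the gene whose KP and KPH2 points separate widely, while Spp1 is high throughout and Ibsp, Mepe, Sp7 and Sost lie at or near 0 counts.

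The rest of the osteoblast programme was read from 28 further genes. Of these, 20 were tested and 0 passed an adjusted p of 0.05 in edgeR, against 1.96% of all tested genes. At an unadjusted p under 0.05 there were 1 higher and 1 lower, against 17.8% of all tested genes in either direction. DESeq2 called 0, against 7.25% of the genes it tested. The median log2 fold change of the 20 was -0.42, with 6 positive and 14 negative, against -0.02 over all tested genes. The smallest p values belonged to Postn, the gene of periostin (log2 fold change -1.31, edgeR adjusted p = 0.257), and Tnfsf11, which encodes the osteoclast-inducing cytokine RANKL (1.01, adjusted p = 0.266 from edgeR). Col1a1 and Col1a2, the chains of type I collagen, were abundant in both groups, as they are in many connective tissue cells, with means of 2779 and 3848 CPM in KP and 1908 and 2418 CPM in KPH2 2 to KPH2 4 (adjusted p = 0.693 and 0.567 from edgeR). Dlx5, Dlx6, Msx2, Panx3 and Bglap2 never exceeded 3 counts in a library.

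Other genes of osteocytes and of mineral did not pass either. For the lists that follow, the shares over all tested genes were 1.96% called by edgeR, 17.8% at an unadjusted p under 0.05 and 7.25% called by DESeq2. Of 8 further osteocyte genes 6 were tested and 0 called by edgeR or by DESeq2, with 5 negative and 1 positive log2 fold change, a median of -0.49, and an unadjusted p under 0.05 for 2 that were lower, Irx5 and Pdpn (-2.47 and -0.91, adjusted p = 0.185 and 0.208). In KPH2 1 Irx5 was at 3.19 CPM, above 3 of the 4 KP tumours, and with KPH2 1 added its log2 fold change was -0.79. Fgf23, the phosphate-regulating hormone of osteocytes, reached at most 1 count. Of 17 genes for phosphate handling and mineral, 13 were tested and 0 called by edgeR, with a median of 0.13, and with 1 higher (Anxa6) and 1 lower (Enpp1) at an unadjusted p under 0.05. DESeq2 called 1, Enpp1, whose enzyme makes the mineral inhibitor pyrophosphate, at -1.61 (adjusted p = 0.022). In KPH2 1 Enpp1 stood at 400 CPM, above its means of 135 CPM in KP and 44.0 CPM in KPH2 2 to KPH2 4, and over all 8 tumours its adjusted p was 0.995 from edgeR. Of 8 dentin and enamel genes, Amelx, which encodes the enamel protein amelogenin, was tested alone. Its log2 fold change of 1.34 had an adjusted p of 0.104 in edgeR and 0.045 in DESeq2. In KPH2 1 Amelx stood at 0.798 CPM, below every KP tumour (1.05 to 1.92 CPM). Over all 8 tumours its adjusted p was 0.391 from edgeR. Amelx lies inside Arhgap6 on the opposite strand, so its reads are uncertain, and Arhgap6 stood at 18.8 to 33.5 CPM in KP and at 48.2 to 68.6 CPM in KPH2 2 to KPH2 4.

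Among 16 genes whose products bind or process SIBLING proteins, 15 were tested, and edgeR called 0 higher and 2 lower (Itgb3 and Mmp2), against 1.24% higher and 0.72% lower over all tested genes. Itgb3, the integrin β3 subunit of a receptor for their RGD motif, was counted at 79.8, 119, 134 and 103 CPM in KP 5, KP 6, KP 7 and KP 8 and at 55.9, 32.1 and 38.2 CPM in KPH2 2, KPH2 3 and KPH2 4 (log2 fold change -1.37 ± 0.25 SE, edgeR adjusted p = 0.0377). Mmp2, the gelatinase known to bind bone sialoprotein, was counted at 353, 751, 750 and 486 CPM in the same 4 KP tumours and at 184, 255 and 150 CPM in the same 3 KPH2 tumours (-1.58 ± 0.32 SE, edgeR adjusted p = 0.0491). Neither gene overlapped between KP and KPH2 2 to KPH2 4, as for 8.15% of all tested genes in this direction. KPH2 1 lay inside the KP range for both, at 81.5 CPM of Itgb3 and 425 CPM of Mmp2. Over all 8 tumours edgeR called 0 of the 15, against 0.00675% of 14805 genes. DESeq2 called 4 over 7 tumours (Itgb3, Mmp2 and Mmp3 lower and Itgb6 higher), against 7.25% of the genes it tested. Itgb6, another integrin subunit of RGD receptors, had a log2 fold change of 2.32 with an adjusted p of 0.124 in edgeR, and of 2.33 with 0.00701 in DESeq2. In KPH2 1 it was at 0.399 CPM, below every KP tumour (0.592 to 4.66 CPM), and over all 8 tumours the edgeR adjusted p was 0.389. The number called was 0 without KP 6, KP 8, KPH2 2, KPH2 3 or KPH2 4, 1 without KP 7 and 2 without KP 5. Mmp9, the protease known to bind Dmp1 protein, had a log2 fold change of -0.70 (adjusted p = 0.478 from edgeR). Bmp1 and Fam20c, which cleave and phosphorylate Dmp1 protein, had 0.28 and 0.65 (adjusted p = 0.521 and 0.227 from edgeR). With KPH2 1 added the values for Mmp9, Bmp1 and Fam20c were -0.08, 0.07 and 0.46. Mmp9 in KPH2 1 was at 236 CPM, just above the KP range of 75.3 to 234 CPM. Mmp3, known to bind osteopontin, stood at 72.8 to 735 CPM in KP and at 9.53 to 24.2 CPM in all 4 KPH2 tumours, a separation downward that 4.4% of genes showed over all 8 tumours. Its log2 fold change of -3.92 had an adjusted p of 0.0745 in edgeR and 7.8e-04 in DESeq2.

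**Figure D3:**
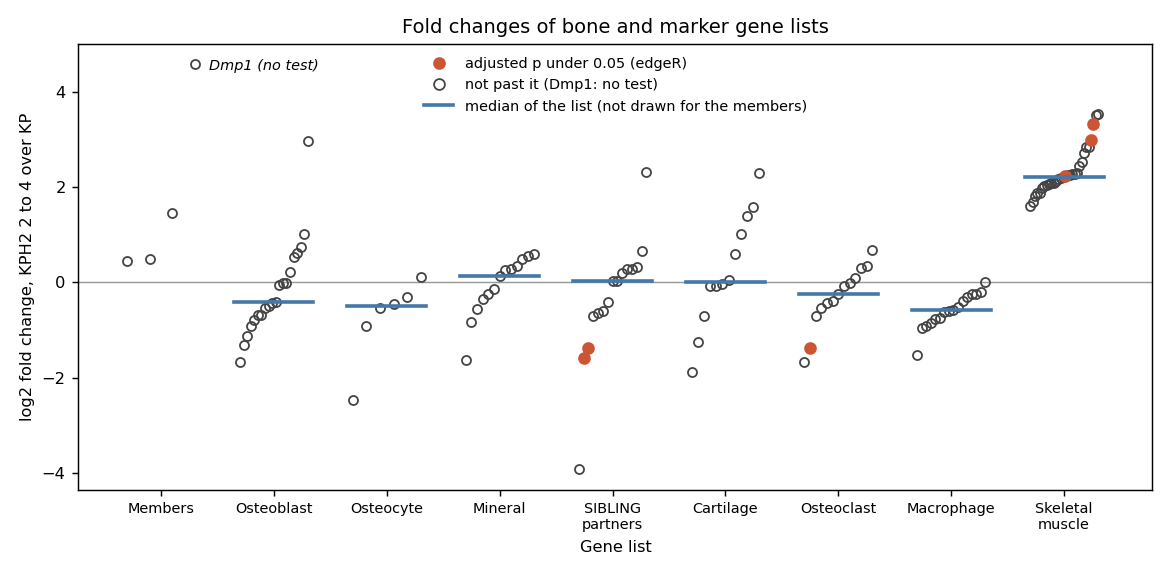
Fitted log2 fold change of KPH2 2 to KPH2 4 over KP 5 to KP 8 for each tested gene of 9 lists, with filled points for an adjusted p under 0.05 in edgeR and a bar at the median of each list other than the 10 genes themselves. Dmp1 stands at 4.57, the osteoblast median at -0.42 and the skeletal muscle median at 2.22.

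Markers of other cells that a section can hold were set beside Dmp1, and in such bulk samples fewer cells of a type and less RNA per cell cannot be told apart. All 30 skeletal muscle genes had a positive log2 fold change (median 2.22), 29 of them with an unadjusted p under 0.05, 3 called by edgeR (Eno3, Myoz2 and Neb) and 25 by DESeq2. Over all tested genes these shares were 17.8%, 1.96% and 7.25%. With KPH2 1 added edgeR called 0 of the 30, against 0.00675% of 14805 genes. The adjusted p was then 0.159, 0.231 and 0.243 for Eno3, Myoz2 and Neb. With 1 of the 7 tumours left out at a time, the highest adjusted p was 0.0311 for Eno3, and for Myoz2 and Neb it was 0.13, each losing its call without any tumour but KPH2 4. Their summed level was 1861 to 3393 CPM in KP and 12766, 19836 and 4388 CPM in KPH2 2, KPH2 3 and KPH2 4, in each of which it was above every KP tumour. In KPH2 1 it was 1530 CPM, below every KP tumour, and Dmp1 in that library was at 11.0 CPM. With a muscle score as covariate, the log2 fold change of Dmp1 for KPH2 2 to KPH2 4 was 4.36 (standard error 0.64), against 4.57 without it. These values are a description, and the part of muscle in the level of Dmp1 was not tested. Of 16 macrophage genes 15 had a negative and 1 a positive log2 fold change (median -0.58), with 0 called by edgeR, 7 lower at an unadjusted p under 0.05 (17.8% of all tested genes had one in either direction), and 1 (Mrc1) called by DESeq2. They summed to 2813 to 5244 CPM in KP and to 2150 to 3163 CPM in KPH2 2 to KPH2 4. Spp1 was lowest in KP 5, which had the lowest macrophage sum among KP tumours, and highest in KPH2 2, which had the lowest macrophage sum of all 8. Their part in the level of Spp1 was not tested.

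Cartilage and bone-resorbing cells were covered by 2 further lists. Over all tested genes edgeR called 1.96%, 17.8% had an unadjusted p under 0.05 and DESeq2 called 7.25%. Of 18 cartilage genes 12 were tested and 0 called by edgeR (median 0.00, 4 higher at an unadjusted p under 0.05, and 1, Sox6, called by DESeq2), and of 15 osteoclast genes 13 were tested and 1, Itgb3 again, was called (median -0.25). DESeq2 called 2 osteoclast genes, Itgb3 and Ctsk, the gene of cathepsin K (-1.67, adjusted p = 0.00946). In KPH2 1 Ctsk was at 208 CPM, inside the KP range of 108 to 353 CPM. With KPH2 1 added its log2 fold change was -0.95 (edgeR adjusted p = 0.506). Of the 8 mesenchymal genes edgeR called 1, Pdgfra, which was lower in KPH2 2 to KPH2 4 (-2.02, edgeR adjusted p = 0.0183). Over all tested genes edgeR called 0.72% in this direction. DESeq2 called Pdgfra too. The edgeR call was lost with KPH2 1 added (-1.54, adjusted p = 0.16) and without KPH2 2 (adjusted p = 0.0718). With KPH2 1 added edgeR called 0.00675% of all tested genes.

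**Figure D4:**
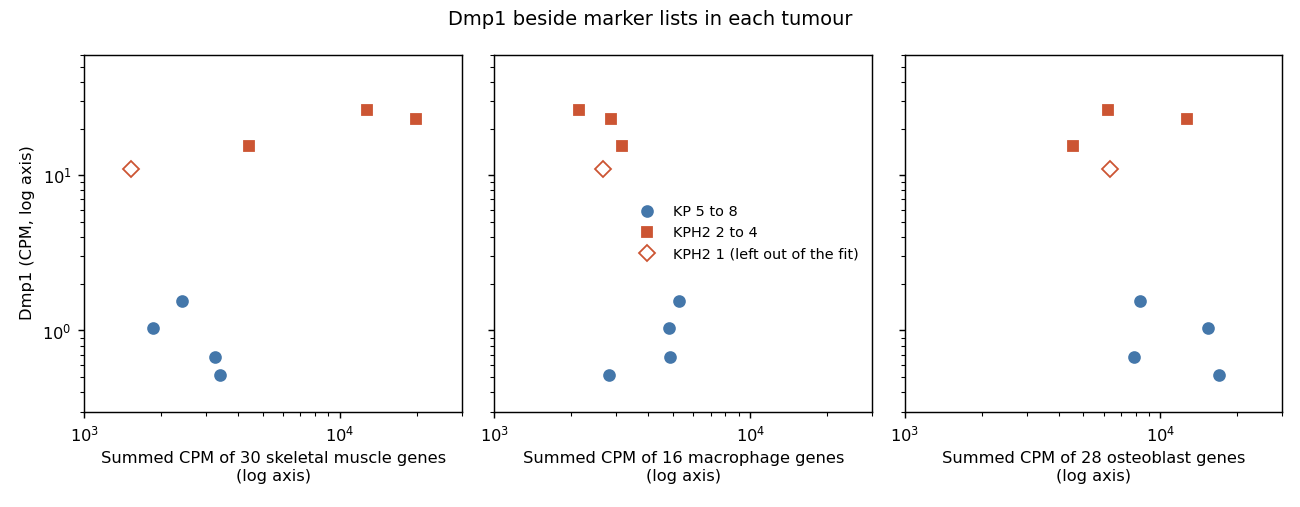
Dmp1 in CPM against the summed CPM of skeletal muscle, macrophage and osteoblast genes (log axes), with 1 point per tumour, circles for KP, squares for KPH2 2 to KPH2 4 and an open diamond for KPH2 1. KPH2 1 has the lowest muscle sum, at 1530 CPM, and 11.0 CPM of Dmp1. KPH2 2 to KPH2 4 lie above KP 5 to KP 8 on both axes of the muscle panel.

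The tested genes whose log2 CPM followed Dmp1 most closely over the 8 tumours were Fto, Zfhx2, Mir5103 and C130046K22Rik, with Pearson's r of 0.974, 0.966, 0.966 and 0.965. These coefficients describe 8 points that share their libraries and fall into the 2 groups. Of these genes Zfhx2 stood at 3.11 to 3.85 CPM in KP and at 5.83 to 11.6 CPM in the 4 KPH2 tumours, and C130046K22Rik was counted 0 times in KP and stood at 1.40 to 2.79 CPM in KPH2.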

How the data were processed

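RNA was extracted from fixed sections, and stranded libraries were made after removal of ribosomal RNA. Reads were aligned by the authors with STAR 2.4 to GRCm38, and htseq-count 0.6.1 counted those with 1 alignment for each RefSeq gene. The authors deposited the raw counts for 8 tumours. The authors also deposited log2 values of DESeq2's regularized log (rlog), over 7 and over 8 tumours. The main test used edgeR 4.0.16 in R 4.3.3 (TMM, minimum count 10, minimum total 15, robust quasi-likelihood test, no covariates, adjusted p threshold 0.05). The standard error is the log2 fold change over the square root of F. Counts were simulated for KPH2 2 to KPH2 4 against KP, with 200 of 14867 genes set to differ by 2 on the log2 scale. On these the test found 197 and called 3 others, whereas DESeq2 1.42.0 found 199 and called 22 others. The simulation gave every gene the same relative spread between tumours and left the lowest-expressed genes unchanged. It therefore does not tell how often such a difference is found in weakly expressed genes or in genes that vary more between tumours. Exon lengths came from GENCODE M21 transcripts with a RefSeq match. Any 2 libraries of a group differed by more than sampling noise, with a chi-square of at least 28.3 per degree of freedom. P-values measure the spread between these tumours.

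The 10 genes and all lists were chosen with earlier results of these data known. Genes named are the 10, Epas1, the neighbours within 500 kb, list genes past the threshold or otherwise the 2 of smallest p, and those most like Dmp1. Any other gene named was picked after seeing its values. Genes listed under 2 symbols were counted once, by the symbol in the table. Some items are not reported here. Alternatives were all 8 tumours, DESeq2 size factors or upper-quartile scaling, no filter, DESeq2, leaving out each tumour and a muscle covariate. The rlog values tested with limma 3.58.1 were added after seeing the data.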

Additional observations from a re-analysis of the deposited data

Results flagged for a closer look

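KPH2 1, which was outside the main comparison, held 11.0 CPM of Dmp1 and 2.47 CPM of Alpl, both above every KP tumour. Summed marker levels were checked for 1 tumour standing far from the other 3 of its group, over 32 groups of values, and 3 stood apart, where chance is expected to give about 1 in 20. The osteocyte sum of KPH2 2 was 955 CPM, the sum of genes that bind or process SIBLING proteins was 4341 CPM in KPH2 3, and the osteoclast sum was 1130 CPM in KP 7, each the highest of its group of 4.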

How the results depend on the processing

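Over 15 alternatives the log2 fold changes of Dmp1, Spp1, Phex and Runx2 stayed positive. Spp1 ran from 0.12 to 2.13, highest with the muscle covariate. Dmp1 ran from 4.36 to 4.90 in 13 of them and was 2.24 and 2.89 on the authors' rlog values for 7 and 8 tumours, a scale that shrinks low counts toward their mean. DESeq2 called 1 of the other 9 genes (Phex, 1.47) and 1 mineral gene in place of 0, and no other alternative called any. The 2 calls among genes that bind or process SIBLING proteins became 4 with DESeq2, 0 over all 8 tumours, 0 with the muscle covariate, 0 on rlog values for 8 tumours, and 0 to 2 with each tumour left out in turn. Over all 8 tumours edgeR called 0.00675% of 14805 genes. Leaving out each tumour gave 0 calls among the other 9 genes, the osteoblast list and the mineral list. No paired analysis was possible because the groups share no replicate numbers. Counts at or below 3 in every library leave Ibsp, Mepe, Sp7 and Sost without a fold change.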
